A study of Homo sapiens with 12 samples.

Results

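The ubiquitin-conjugating enzymes, or E2 enzymes, were read in HK-2 cells, a human kidney cell line derived from proximal tubule and immortalised, after exposure to the compound labelled CdCl. The members are all genes whose symbol starts with UBE2 and that have at least 1 probe set annotated to that symbol alone. Where a gene has several such probe sets, the brightest on average across all 12 arrays stands for it. This gave 32 genes of 19775, and 26 of them passed the filter on low values, a log2 signal above 4 on at least 3 arrays, which 10683 genes passed. The arrays form 4 groups of 3 biological replicates: vehicle control and CdCl, each at 12 h and at 48 h, with no genetic change in any group. The labels name no dose. The study belongs to a survey of 9 compounds for expression signatures of kidney toxicity, and the growth medium of all groups held insulin, transferrin, selenite, hydrocortisone and EGF.

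Ubiquitin is attached to proteins in 3 steps. An activating enzyme (E1) charges ubiquitin, an E2 enzyme takes it over on a catalytic cysteine, and a ligase (E3) directs the E2 enzyme to a substrate. The E2 enzyme often decides which kind of chain is built, and with it whether the substrate is degraded by the proteasome or takes part in signalling or DNA repair. Some E2 enzymes carry ubiquitin-like proteins such as NEDD8 or ISG15 instead. Metals and oxidants damage proteins, and damaged proteins are marked for removal by this route.

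Of the 26 genes tested, 24 are protein-coding in RefSeq. The other 2 are UBE2D3-AS1, an antisense RNA gene, and UBE2NL, which RefSeq lists as a transcribed pseudogene close to UBE2N. The 6 genes under the filter were UBE2DNL, UBE2E2-DT, UBE2Q2P13, UBE2Q2P16, UBE2QL1 and UBE2U, whose signals lay between 2.08 and 3.47 on all arrays. UBE2D1, UBE2D2, UBE2D3, UBE2L3, UBE2M and UBE2W had no probe set named in the annotation and were not analysed here. UBE2V1 stood only on probe sets shared with other genes.

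HK-2 identity was read from markers. The epithelial genes KRT8, KRT18, KRT19 and EPCAM and the renal factor PAX8 were above the filter on all 12 arrays, and 10 of 17 epithelial and proximal tubule genes were. The renal factor PAX2 was under the filter on every array (2.83 to 3.07). So were the brush border and transport genes AQP1, GGT1, ANPEP, LRP2, CUBN and SLC34A1. The tubule genes SLC4A4, CDH6 and CDH16 were above it on all. None of 5 endothelial, 4 leukocyte and 2 podocyte genes exceeded the filter on any array. Of 6 fibroblast genes DCN (10.6 to 11.9) and COL1A1 (7.05 to 7.99) were above it on all 12 arrays, as was AQP2 (4.09 to 4.56) of 3 distal tubule and collecting duct genes. The response to the compound was present in all treated arrays, with HMOX1, the haem-degrading enzyme, 75.7-fold higher at 12 h and 81.1-fold higher at 48 h. The proliferation genes MKI67, CCNB1, CDK1, TOP2A, MCM5 and CCNE2 were all lower with CdCl, with a median log2 change of -1.12 at 12 h and -1.39 at 48 h. The 27 poly-A spike-in control probe sets averaged 6.09 (5.97 to 6.18) in control and 6.51 (6.48 to 6.54) in CdCl arrays at 12 h, and 5.74 (5.67 to 5.84) and 5.90 (5.40 to 6.19) at 48 h. The CdCl arrays at 48 h thus lay on both sides of their controls. The part of spike-ins and markers in the results was not tested. In bulk RNA, fewer cells of a kind and less RNA per cell cannot be told apart.

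At 12 h, UBE2H, UBE2B, UBE2S, UBE2K and the antisense gene UBE2D3-AS1 rose with CdCl, while UBE2R2, UBE2Z, UBE2G2, UBE2T, UBE2C, UBE2Q2, UBE2E3, UBE2E1, UBE2A and UBE2J2 fell. In all, 5 of the 26 (19.2%) passed as higher and 10 (38.5%) as lower in the limma fit across all genes (Benjamini-Hochberg adjusted p under 0.05). Over all 10683 genes 16.7% were higher and 39.7% lower, so the UBE2 shares lay near the background. The higher calls include UBE2D3-AS1, which passed the filter only through its CdCl arrays. Groups did not overlap for 8 genes with all CdCl arrays above the controls and for 10 with all below, where 19.8% and 46.6% of all genes did so. The median change was -0.02 over the 26 genes and -0.16 over all genes. After centring each array on its median, 11 UBE2 genes were higher and 9 lower at 12 h, against 24.4% and 26.5% of all genes. Over all genes, the share of lower calls among all calls went from 70.4% to 52.1% with that scaling.

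At 48 h the balance was towards higher signals. UBE2 genes were higher in 12 (46.2%) and lower in 4 (15.4%) of 26 cases, against 26.5% and 28.0% of all genes, with a median change of 0.24 against -0.02 over all genes. Groups did not overlap, all CdCl arrays above all controls, for 12 genes, and the reverse held for 4, where 29.1% and 30.9% of all genes did so. Both counts of higher genes include UBE2D3-AS1, which passed the filter only through its CdCl arrays. Of the 24 protein-coding genes, 11 were higher and 4 lower, and groups did not overlap for 10 and 4. On the probe sets used, genes called higher at both times were UBE2B, UBE2D3-AS1, UBE2H, UBE2K and UBE2S, and UBE2E3, UBE2Q2 and UBE2R2 were lower at both. UBE2G2 and UBE2J2 were lower at 12 h and higher at 48 h on the probe sets used. UBE2E2, UBE2F, UBE2NL, UBE2O and UBE2V2 passed at neither time. The difference between the effects, 48 h minus 12 h, was positive for 9 and negative for 2 of the 26 genes (adjusted p under 0.05 in limma), against 27.0% and 13.0% of all genes. UBE2D3-AS1 was among the negative ones, and of the 24 protein-coding genes 9 were positive and 1 negative. After centring each array, lower calls made up 51.1% in place of 32.6% of all calls of that difference. With that scaling 4 UBE2 genes were negative, against 18.6% of all genes.

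**Figure D1:**
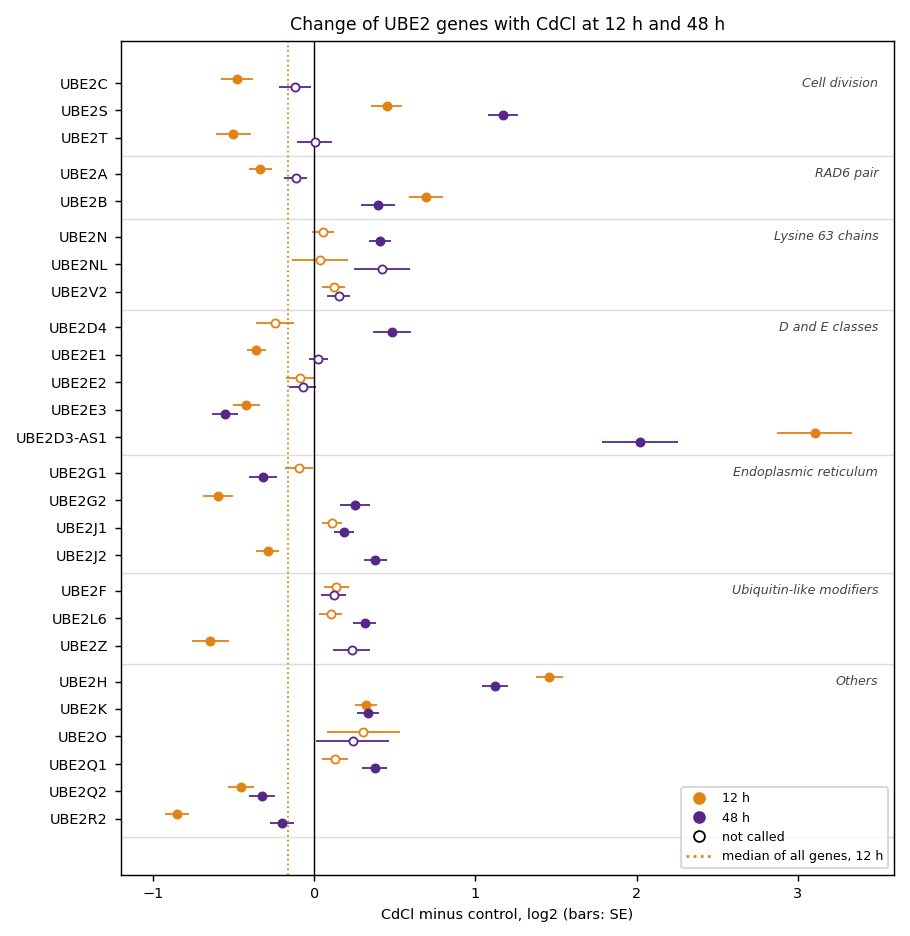
Log2 change with CdCl against control (horizontal axis, bars are the SE of the fit) for the 26 tested UBE2 genes (vertical axis, grouped by role), at 12 h in orange and 48 h in purple; open dots were not called, and the dotted line is the median of all genes at 12 h, -0.16. UBE2D3-AS1, whose controls are under the filter, at a fitted 3.11 and UBE2H at 1.46 lie farthest to the right at 12 h, and UBE2R2 at -0.85 farthest to the left.

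UBE2H rose at both times. It encodes the E2 enzyme that works with the CTLH (GID) ligase complex, known from red blood cell development. Its log2 signals were 9.25, 9.37 and 9.56 in the 12 h controls and 10.86, 10.82 and 10.88 with CdCl. At 48 h they were 10.08, 10.27 and 10.14 in controls and 11.29, 11.32 and 11.25 with CdCl. At each time every treated array lay above every control, and the 48 h controls lay above the 12 h controls. The change was 1.46 ± 0.08 (SE of the fit) at 12 h, 2.75-fold (limma adjusted p = 8.8e-08), and 1.12 ± 0.08 at 48 h, 2.18-fold (adjusted p = 5.3e-07). All 7 probe sets of UBE2H that passed the filter rose at both times, by 0.47 to 2.41 at 12 h and 0.72 to 1.70 at 48 h. The difference between the effects was -0.34 ± 0.12 (limma adjusted p = 0.037). That call ended without any of 9 arrays (adjusted p = 0.054 to 0.085): CdCl 12 h replicates 1, 2 and 3, CdCl 48 h replicates 1 and 3, control 12 h replicates 1 and 2, and control 48 h replicates 2 and 3. It also ended with a replicate block (adjusted p = 0.051), and it turned to 0.48 on the gene's second probe set.

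UBE2D3-AS1 had the largest fitted change among the members. It is annotated as an antisense RNA gene lying inside UBE2D3, on the opposite strand. Its signal was 3.04, 3.70 and 3.08 in 12 h controls and 6.40, 6.14 and 6.60 with CdCl. At 48 h it was 3.14, 3.55 and 3.05 in controls and 5.07, 4.98 and 5.75 with CdCl. The controls were all under the filter of 4, so only a bound on the fold can be given, with the control set to 4. CdCl arrays were at least 5.20-fold higher at 12 h and at least 2.41-fold higher at 48 h. The gene passed the filter only through its 6 CdCl arrays, so it had to differ, and its calls (limma adjusted p = 9.1e-07 and 2.0e-05) are no support beyond these values. Among CdCl arrays all 3 at 48 h lay below all 3 at 12 h. The fitted difference between the effects was called (limma adjusted p = 0.022), a call lost when unfiltered genes were included (adjusted p = 0.067). It was also lost without CdCl 12 h replicate 3, CdCl 48 h replicate 1, control 12 h replicate 1 or 3 or control 48 h replicate 2 (adjusted p = 0.051 to 0.054). UBE2D3 was not analysed here, and whether the probe set of UBE2D3-AS1 also reads UBE2D3 transcripts was not tested, so its signal cannot be assigned to the antisense RNA alone.

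**Figure D2:**
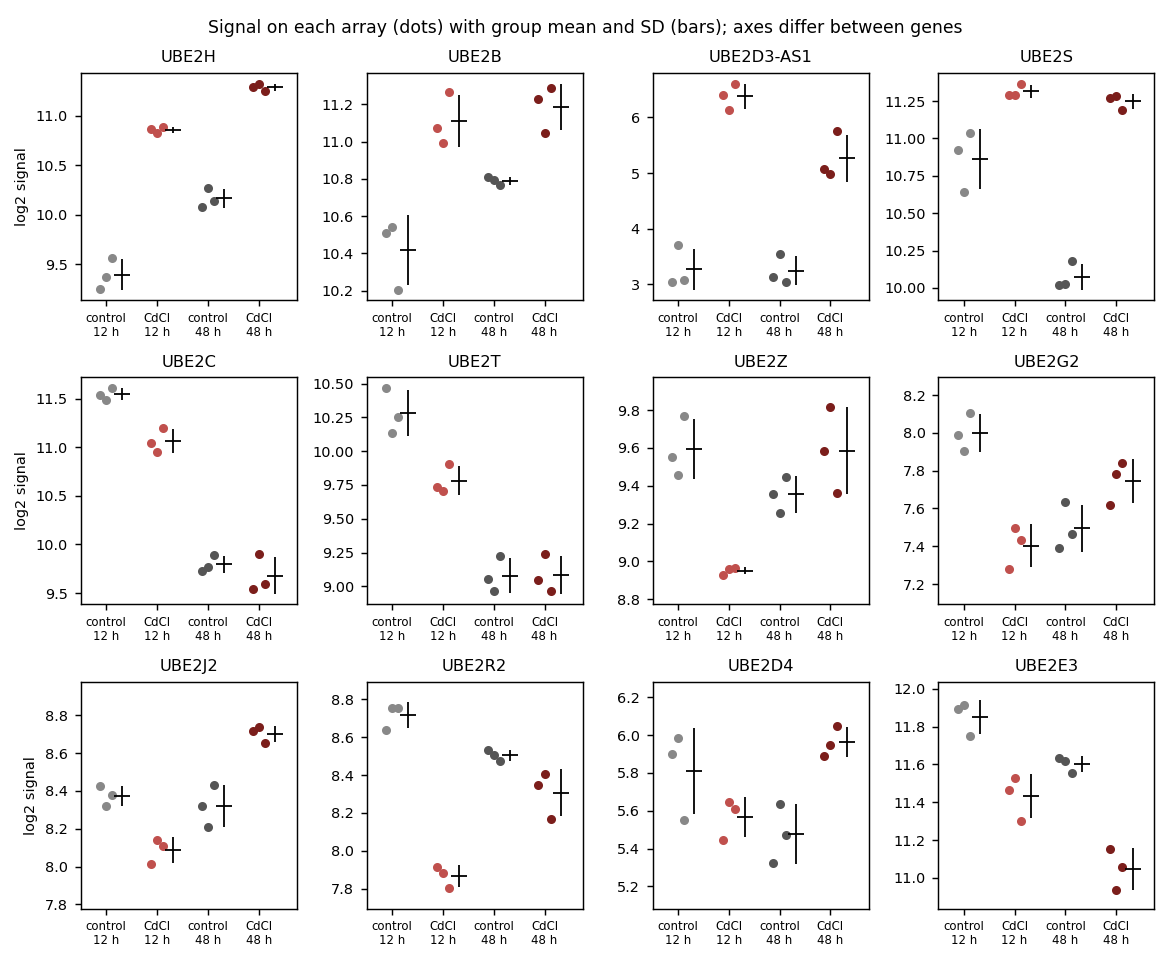
Log2 signal (vertical axes, which differ between genes) on each array for 12 UBE2 genes in control and CdCl cells at 12 h and 48 h; dots are arrays, and the bar beside them is the group mean and SD (n = 3). UBE2S stays between 11.19 and 11.37 in all CdCl arrays while its controls drop from 12 h to 48 h, and UBE2Z at 12 h with CdCl lies near 8.95.

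Of the E2 enzymes of cell division, UBE2S moved against UBE2C and UBE2T. UBE2C starts ubiquitin chains on substrates of the anaphase-promoting complex, UBE2S lengthens these chains, and UBE2T serves the Fanconi anaemia pathway of DNA crosslink repair. UBE2S signals were 10.92, 10.64 and 11.03 in 12 h controls and 11.29, 11.29 and 11.37 with CdCl, with no overlap. At 48 h controls had 10.02, 10.03 and 10.18 and CdCl cells 11.27, 11.29 and 11.19. The 48 h controls lay below the 12 h controls, while the CdCl arrays were close at both times. The effect was 0.45 ± 0.09 at 12 h (limma adjusted p = 0.0017) and 1.17 ± 0.09 at 48 h (adjusted p = 1.1e-06), 2.25-fold, and it was larger at 48 h by 0.72 ± 0.13 (adjusted p = 0.0014).

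UBE2C read 11.54, 11.48 and 11.61 in 12 h controls and 11.05, 10.96 and 11.20 with CdCl, a change of -0.48 ± 0.10 (limma adjusted p = 0.0016). At 48 h controls read 9.73, 9.77 and 9.89 and CdCl cells 9.55, 9.90 and 9.60, which overlapped (-0.12 ± 0.10, adjusted p = 0.35). UBE2T went from 10.47, 10.13 and 10.25 to 9.73, 9.71 and 9.91 at 12 h (-0.50 ± 0.11, limma adjusted p = 0.0021). At 48 h its groups overlapped at 9.05, 8.96 and 9.22 in controls and 9.04, 9.24 and 8.97 with CdCl (0.01 ± 0.11, adjusted p = 0.97). For UBE2T the effects at both times differed by 0.51 ± 0.15 (limma adjusted p = 0.022), which did not pass after centring each array (0.38, adjusted p = 0.088) or without CdCl 12 h replicate 2 or control 48 h replicate 2 (0.47 and 0.45, the latter with adjusted p = 0.052). Without CdCl, all 3 genes fell from 12 h to 48 h, UBE2C by 1.75, UBE2T by 1.20 and UBE2S by 0.79 on the log2 scale. In CdCl cells UBE2C and UBE2T fell over that time by 1.39 and 0.70, and the change of UBE2S, -0.07 ± 0.09, did not pass (limma adjusted p = 0.56).

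The promoter windows of UBE2S and UBE2T are shown because these 2 genes of cell division differed in direction at 12 h, and those of UBE2G2 and UBE2J2 because both were called lower at 12 h and higher at 48 h. Each is the 250 bases before the RefSeq start site, 5′ to 3′ on the gene's strand (minus for all 4), in GRCh38.p14. Capitals mark matches to any motif searched on both strands.

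UBE2S, chr19:55407789-55408038: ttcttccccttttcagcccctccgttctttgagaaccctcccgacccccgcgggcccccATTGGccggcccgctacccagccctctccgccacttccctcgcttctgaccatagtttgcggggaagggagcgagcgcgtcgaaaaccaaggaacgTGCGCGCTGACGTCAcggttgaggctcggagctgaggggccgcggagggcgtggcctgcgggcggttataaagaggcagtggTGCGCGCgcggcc
UBE2T, chr1:202341937-202342186: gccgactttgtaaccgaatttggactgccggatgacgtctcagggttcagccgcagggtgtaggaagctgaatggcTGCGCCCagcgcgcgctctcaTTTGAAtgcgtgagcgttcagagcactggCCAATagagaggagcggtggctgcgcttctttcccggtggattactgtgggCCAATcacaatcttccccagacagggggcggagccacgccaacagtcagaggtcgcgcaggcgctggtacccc
UBE2G2, chr21:44801821-44802070: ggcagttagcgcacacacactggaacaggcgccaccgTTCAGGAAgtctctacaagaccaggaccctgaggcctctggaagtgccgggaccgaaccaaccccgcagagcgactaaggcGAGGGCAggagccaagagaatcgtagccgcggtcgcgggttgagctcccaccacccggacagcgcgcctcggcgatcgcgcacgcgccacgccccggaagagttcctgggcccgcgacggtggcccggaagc
UBE2J2, chr1:1273855-1274104: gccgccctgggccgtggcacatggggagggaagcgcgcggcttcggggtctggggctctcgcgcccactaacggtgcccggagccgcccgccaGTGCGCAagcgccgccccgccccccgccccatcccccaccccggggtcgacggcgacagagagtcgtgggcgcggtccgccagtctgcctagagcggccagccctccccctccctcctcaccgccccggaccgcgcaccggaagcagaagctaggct

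The motifs were the heat shock element cores GAANNTTC and TTCNNGAA, the antioxidant response element core TGACNNNGC, the cyclic AMP response element core TGACGTNA, the cell cycle homology region core TTTGAA and the CCAAT box. TGCNCNC was also searched, a loose form of the metal response element core. It allows any base after TGC, where the core has A or G. UBE2S held TGACGTNA at position -88 from its start site, where 2.67% of 35114 windows hold it. It was the only one of the 20 UBE2 genes searched to do so. UBE2S also held a CCAAT box. UBE2T held TTTGAA, present in 13.3% of all windows, and 2 CCAAT boxes, present in 32% of windows. UBE2G2 held TTCNNGAA at position -213, found in 6.62% of windows and in no other UBE2 window searched. GAANNTTC was in 5.78% of all windows and in none of the UBE2 windows searched. TGACNNNGC was in those of UBE2J1, UBE2K and UBE2Q2 and in 10.9% of windows. TGCNCNC, the only motif in the UBE2J2 window, was in 17 of the 20 UBE2 genes and in 49.1% of all windows. In the UBE2G2 match the base after TGC is C, so that stretch is not the metal response element core. Some matches touch each other, as TGCNCNC and TGACGTNA do in UBE2S. A match is a description of letters and shows no binding.

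The RAD6 pair, UBE2A and UBE2B, encodes near-identical enzymes that ubiquitinate PCNA with RAD18 and histone H2B with RNF20 and RNF40. UBE2B rose from 10.51, 10.54 and 10.20 in 12 h controls to 11.07, 10.99 and 11.27 with CdCl. At 48 h controls read 10.81, 10.80 and 10.77 and CdCl cells 11.23, 11.05 and 11.29, again with no overlap. The changes were 0.69 ± 0.10 (limma adjusted p = 1.7e-04) and 0.40 ± 0.10 (adjusted p = 0.0070). All 4 probe sets of UBE2B past the filter were higher at both times, by 0.69 to 1.04 at 12 h and 0.39 to 0.52 at 48 h. UBE2A changed by -0.33 ± 0.07 at 12 h (limma adjusted p = 0.0018) on the probe set used, and its second probe set gave 0.06 and no call. At 48 h its change was -0.11 ± 0.07 (limma adjusted p = 0.19), while the second probe set was called higher (0.27, adjusted p = 0.028) and quantile normalization called the first lower (-0.17, adjusted p = 0.048).

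UBE2N, which with UBE2V1 or UBE2V2 builds the ubiquitin chains used in signalling and DNA repair rather than for degradation, did not pass at 12 h (0.06 ± 0.07, limma adjusted p = 0.52), though its second probe set gave 0.39 there (adjusted p = 0.022). At 48 h it read 10.35, 10.24 and 10.39 in controls and 10.73, 10.76 and 10.71 with CdCl, a rise of 0.41 ± 0.07 (limma adjusted p = 3.7e-04). The second probe set also rose at 48 h (0.36), while the remaining one gave -0.045 with overlapping groups. The difference between the times, 0.35 ± 0.10 (adjusted p = 0.014), was not called after centring each array (adjusted p = 0.12), nor on the mean of the probe sets (0.06) or on the second probe set (-0.03). The pseudogene UBE2NL gave 0.42 ± 0.17 at 48 h (limma adjusted p = 0.061), and without CdCl 48 h replicate 1 or 3 it passed (adjusted p = 0.028 and 0.036). Probe sets of UBE2N and UBE2NL may read each other's transcripts, so their values cannot be taken as independent. UBE2N rose at 48 h on 2 of its 3 probe sets. How far UBE2NL transcripts add to that rise was not tested. UBE2V2 changed by 0.12 ± 0.07 and 0.15 ± 0.07 (adjusted p = 0.17 and 0.092 in limma). On the probe set used it passed at 48 h without CdCl 48 h replicate 2 (limma adjusted p = 0.020). Its other probe sets past the filter gave -0.12 and -0.025 at 12 h and -0.27 and -0.20 at 48 h, with overlapping groups.

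Among the D and E classes, small E2 enzymes that serve many ligases, UBE2E3 fell at both times and UBE2E1 at 12 h, while UBE2D4 rose at 48 h. UBE2E3 went from 11.89, 11.92 and 11.75 to 11.46, 11.53 and 11.30 at 12 h, and from 11.63, 11.62 and 11.56 to 11.15, 10.93 and 11.06 at 48 h. The CdCl arrays lay below the controls at each time (-0.42 ± 0.08 and -0.55 ± 0.08, limma adjusted p = 0.0011 and 1.5e-04). UBE2D4 read 5.90, 5.98 and 5.55 in 12 h controls and 5.45, 5.65 and 5.61 with CdCl, which overlapped (-0.24 ± 0.12, adjusted p = 0.097). Without control 12 h replicate 3 that change was -0.37 and passed (limma adjusted p = 0.012). At 48 h UBE2D4 went from 5.32, 5.64 and 5.47 to 5.89, 5.95 and 6.05 (0.48 ± 0.12, limma adjusted p = 0.0043), and all 5 of its probe sets past the filter were higher there. Its second probe set gave 0.51 but no call (adjusted p = 0.062). The effects differed by 0.73 ± 0.17 (limma adjusted p = 0.0050), not called on the second probe set (0.39). UBE2E1 changed by -0.36 ± 0.06 at 12 h and 0.03 ± 0.06 at 48 h, a difference of 0.39 ± 0.08 (adjusted p = 0.0035 in limma).

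None of UBE2J1, UBE2J2, UBE2G2 and UBE2G1 was called higher at 12 h on the probe set used. UBE2J1 and UBE2J2 are anchored in the membrane of the endoplasmic reticulum, and UBE2G2 is recruited there to discard misfolded proteins. UBE2G1 is cytosolic and serves cullin ligases. UBE2G2 fell from 7.99, 7.90 and 8.11 to 7.28, 7.50 and 7.43 at 12 h (-0.60 ± 0.09, limma adjusted p = 2.2e-04). At 48 h controls were at 7.39, 7.63 and 7.46 and CdCl cells at 7.62, 7.78 and 7.84. These groups overlapped by a small margin (0.25 ± 0.09, adjusted p = 0.039), and the call ended without CdCl 48 h replicate 2 or 3 or control 48 h replicate 1 or 3 (adjusted p = 0.091 to 0.14). Its second probe set gave -0.42 at 12 h and -0.052 at 48 h. UBE2J2 fell from 8.42, 8.32 and 8.38 to 8.01, 8.14 and 8.11 at 12 h (-0.29 ± 0.07, limma adjusted p = 0.0051), and rose from 8.32, 8.21 and 8.43 to 8.72, 8.74 and 8.65 at 48 h (0.38 ± 0.07, adjusted p = 8.3e-04). The groups did not overlap at either time. The 12 h fall of UBE2J2 was not called after centring each array (-0.14, adjusted p = 0.15), and its second probe set gave 0.24 there. The effects differed by 0.85 ± 0.13 for UBE2G2 and 0.67 ± 0.10 for UBE2J2 (limma adjusted p = 5.1e-04 and 4.5e-04), and neither difference was called on the second probe set (0.37 and 0.21).

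UBE2J1 was higher at 48 h than at 12 h in controls. It lay at 8.64 to 8.70 in 12 h controls and 9.81 to 9.88 in 48 h controls, a rise of 1.18 ± 0.06 (limma adjusted p = 3.5e-08), 2.27-fold, without CdCl. With CdCl it was higher by 0.11 ± 0.06 at 12 h (adjusted p = 0.16) and 0.18 ± 0.06 at 48 h (adjusted p = 0.027 in limma). The 48 h call ended without CdCl 48 h replicate 1 or 3 or control 48 h replicate 1 or 3 (adjusted p = 0.058 to 0.089). At 12 h the mean of all its probe sets gave 0.39 and a call (limma adjusted p = 5.9e-04), as all 5 past the filter were higher, by 0.11 to 0.74. UBE2G1 changed by -0.09 ± 0.09 at 12 h and -0.32 ± 0.09 at 48 h (limma adjusted p = 0.39 and 0.0085), and its second probe set gave -0.24 at 48 h and no call.

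Of the E2 enzymes for ubiquitin-like proteins, UBE2Z fell at 12 h and the other two did not pass there. UBE2Z is charged only by the second ubiquitin E1, UBA6, and also carries FAT10, UBE2F carries NEDD8 to CUL5 and UBE2L6 is the ISG15 enzyme. UBE2Z went from 9.55, 9.46 and 9.77 to 8.93, 8.96 and 8.96 at 12 h, with treated arrays tightly together below all controls (-0.64 ± 0.11, limma adjusted p = 5.4e-04). At 48 h controls read 9.36, 9.25 and 9.45 and CdCl cells 9.58, 9.82 and 9.36, which overlapped (0.23 ± 0.11, adjusted p = 0.11). Without CdCl 48 h replicate 3 the change at 48 h was 0.35 and passed (adjusted p = 0.020 in limma). The effects differed by 0.88 ± 0.16 (limma adjusted p = 0.0014). UBE2L6 rose by 0.31 ± 0.07 at 48 h (limma adjusted p = 0.0029), from 9.06, 8.89 and 8.94 to 9.28, 9.36 and 9.19, and UBE2F changed by 0.14 ± 0.08 and 0.12 ± 0.08 at 12 h and 48 h without a call. At 48 h UBE2F was called higher on its second probe set (0.34, limma adjusted p = 0.011) and on the mean of its probe sets (0.25, adjusted p = 0.0041).

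UBE2R2, a close relative of CDC34 that extends chains on substrates of cullin ligases, had the largest fall at 12 h. It went from 8.64, 8.76 and 8.76 to 7.91, 7.88 and 7.80, 1.80-fold lower (-0.85 ± 0.07, limma adjusted p = 2.9e-06). At 48 h it read 8.53, 8.51 and 8.48 in controls and 8.35, 8.41 and 8.17 with CdCl, still without overlap but closer (-0.20 ± 0.07, adjusted p = 0.041). The 48 h call ended without any of 8 arrays (adjusted p = 0.051 to 0.16): CdCl 48 h replicates 1 and 3, each control 48 h replicate, CdCl 12 h replicates 1 and 2, and control 12 h replicate 2. It also ended with a replicate block (adjusted p = 0.052) and after quantile normalization or centring of arrays (adjusted p = 0.064 and 0.097). The effects differed by 0.65 ± 0.11 (limma adjusted p = 6.3e-04). The second probe set of UBE2R2 gave -0.21 at 12 h and -0.20 at 48 h, with no call at either time or for the difference between them (0.015).

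The remaining enzymes changed by less than 0.5 on the log2 scale at both times. UBE2K, which builds chains that mark proteins for the proteasome, was higher by 0.32 ± 0.07 at 12 h and 0.33 ± 0.07 at 48 h (limma adjusted p = 0.0017 and 0.0013). At 48 h its second probe set gave -0.11, with all CdCl arrays below all controls, and the remaining one -0.016. The mean of its probe sets was not called there (0.07, limma adjusted p = 0.22). UBE2Q1 rose at 48 h by 0.38 ± 0.08 (adjusted p = 0.0018 in limma), not called on its second probe set (0.27), and its relative UBE2Q2 fell by 0.45 ± 0.08 and 0.32 ± 0.08 (adjusted p = 4.7e-04 and 0.0046). UBE2O, a large enzyme that acts as E2 and E3 in one, lay between 3.23 and 4.67 on all arrays, near the filter, and gave no call. UBE2E2 changed by -0.09 and -0.07 with overlap at both times.

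**Figure D3:**
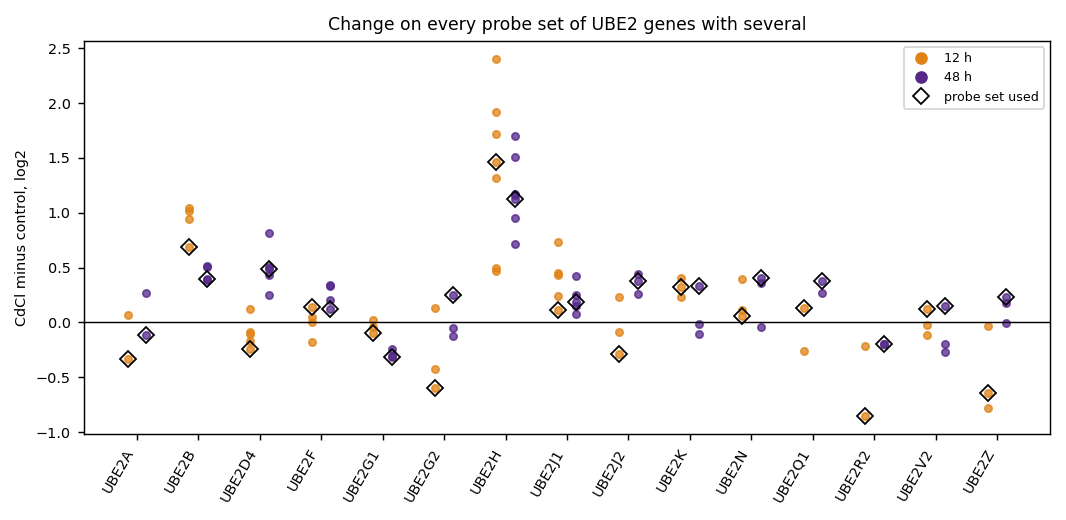
Log2 change with CdCl against control (vertical axis) on each of the 52 probe sets past the filter for the 15 UBE2 genes that have several, at 12 h in orange and 48 h in purple; diamonds mark the probe set used. All probe sets of UBE2H, UBE2B and UBE2J1 lie above 0 at both times, while those of UBE2G2 and UBE2J2 lie on both sides of 0 at 12 h.

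Members also differed between the 12 h and 48 h controls, without the compound. The spike-in averages of these controls differed too (5.97 to 6.18 at 12 h and 5.67 to 5.84 at 48 h), and their part was not tested. In controls, 7 of 26 rose and 12 fell from 12 h to 48 h, where 23.4% and 33.5% of all genes did, and in CdCl cells 11 were higher and 7 lower, against 34.7% and 27.6%. The controls at 48 h were lower by 1.03 ± 0.07 for UBE2N and 0.42 ± 0.07 for UBE2V2 (limma adjusted p = 2.1e-07 and 3.6e-04), partners in building signalling chains. UBE2H rose over that time in controls by 0.77 ± 0.08 (limma adjusted p = 9.7e-06), so its control level moved in the direction that CdCl also moved it. These comparisons share arrays with the CdCl comparisons.

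**Figure D4:**
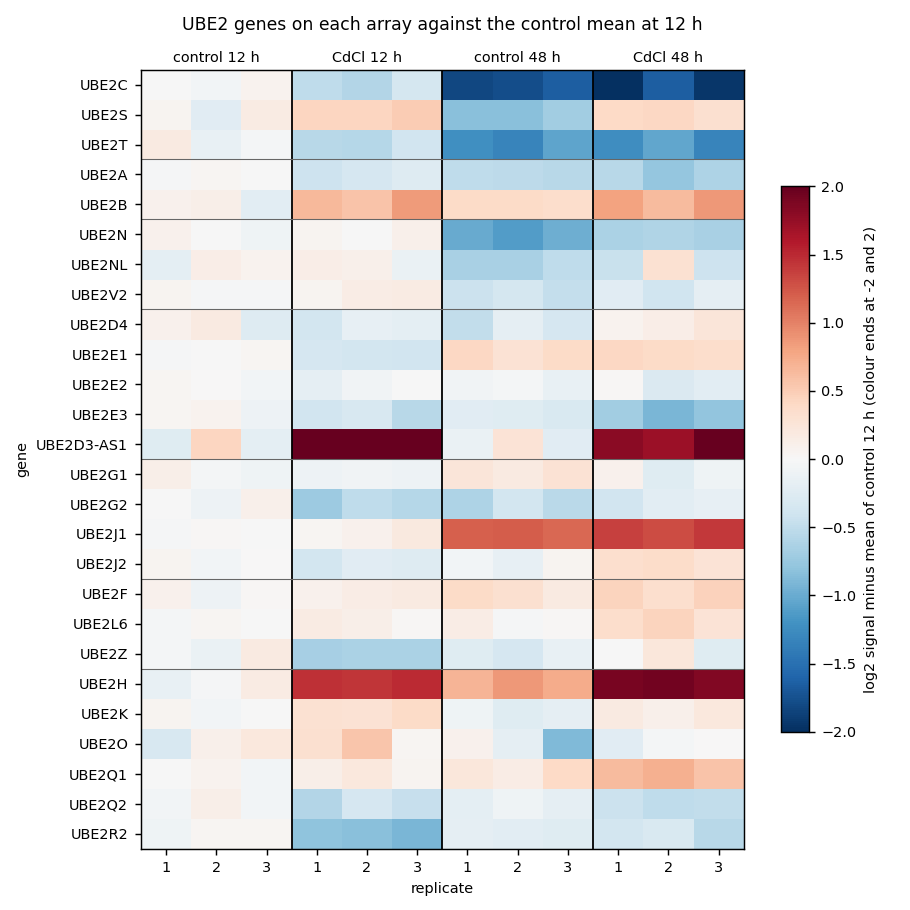
Log2 signal of the 26 tested UBE2 genes on each of the 12 arrays (columns, by group and replicate) minus the gene's control mean at 12 h, in red above and blue below it. UBE2C, UBE2T and UBE2N are blue in all 48 h columns, UBE2J1 is red in all 48 h columns, and UBE2H and UBE2D3-AS1 are deep red in the CdCl columns.

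The rest of the pathway was read from lists chosen by function. The list counts stand beside shares over all genes of 16.7% higher and 39.7% lower at 12 h, and 26.5% and 28.0% at 48 h. Whether any list departs from these shares was not tested. Of the ubiquitin genes only UBB could be read, at 14.92 in control and 14.83 in CdCl cells at 12 h and 14.80 and 14.85 at 48 h, near the top of the scale and without a call. Among 7 E1 genes tested, 2 rose and 4 fell at 12 h (median -0.29, all genes -0.16), and 3 rose and 1 fell at 48 h (median 0.03). UBA1, the main ubiquitin E1, changed by -0.70 ± 0.10 and then 0.36 ± 0.10 (limma adjusted p = 9.9e-05 and 0.0077), a difference of 1.06 ± 0.14 (adjusted p = 1.7e-04). UBA6, the E1 that charges UBE2Z, rose by 0.61 ± 0.09 and 0.42 ± 0.09 (adjusted p = 1.4e-04 and 0.0018 in limma). ATG7, the E1 of autophagy, fell by 0.94 ± 0.21 at 12 h (limma adjusted p = 0.0022).

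Of 8 E2 and E2-like genes under other names, 1 rose and 2 fell at 12 h and 3 rose and 2 fell at 48 h. Among all genes 16.7% were higher and 39.7% lower at 12 h, and 26.5% and 28.0% at 48 h. CDC34, the relative of UBE2R2, also fell at 12 h (-0.72 ± 0.12, limma adjusted p = 3.8e-04) and rose at 48 h (0.32 ± 0.12, adjusted p = 0.041). AKTIP fell by 0.75 ± 0.11 and 0.49 ± 0.11 at 12 h and 48 h (adjusted p = 1.1e-04 and 0.0023 in limma). Of 10 ubiquitin-like modifiers, 3 rose and 4 fell at 12 h and 5 rose and 1 fell at 48 h. The autophagy modifiers MAP1LC3B and ATG12 rose by 1.79 ± 0.08 and 1.06 ± 0.09 at 12 h (limma adjusted p = 1.0e-08 and 2.4e-06). ISG15 rose at 48 h by 0.54 ± 0.09 (limma adjusted p = 4.0e-04), as did UBE2L6.

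Of 16 genes of the anaphase-promoting complex and its regulators, with which UBE2C and UBE2S work, 1 rose and 10 fell at 12 h (median -0.38) and 1 rose and 7 fell at 48 h (median 0.03). Among all genes 16.7% were higher and 39.7% lower at 12 h, and 26.5% and 28.0% at 48 h. The inhibitor FBXO5 and the activator CDC20 fell by 1.44 ± 0.07 and 1.00 ± 0.11 at 12 h (limma adjusted p = 3.6e-08 and 1.5e-05). Of 14 ligases and partners of degradation at the endoplasmic reticulum, 6 rose and 1 fell at 12 h (median 0.17) and 6 rose and 3 fell at 48 h (median 0.17). HERPUD1 and SEL1L, scaffolds of that machinery, were 4.39-fold and 2.41-fold higher at 12 h (limma adjusted p = 4.2e-09 and 4.2e-07). In controls both also rose from 12 h to 48 h, HERPUD1 by 3.29 ± 0.08 and SEL1L by 2.57 ± 0.09 (adjusted p = 1.8e-10 and 1.4e-09 in limma), and neither was called with CdCl at 48 h.

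Of 33 ligases and partners that pair with UBE2D, UBE2N, RAD6 or UBE2T enzymes, 5 rose and 16 fell at 12 h and 9 rose and 6 fell at 48 h. For this and the lists that follow, the shares over all genes were 16.7% higher and 39.7% lower at 12 h. At 48 h they were 26.5% and 28.0%. The HECT ligases NEDD4 and NEDD4L rose by 1.82 ± 0.07 and 1.54 ± 0.08 at 12 h (limma adjusted p = 4.1e-09 and 3.3e-08). The Fanconi ligase FANCL, partner of UBE2T, and its substrate FANCI fell by 1.18 ± 0.10 and 1.20 ± 0.11 at 48 h (limma adjusted p = 1.3e-06 and 3.9e-06), where UBE2T had no call. Of 19 genes of the cullin and NEDD8 machinery, 2 rose and 9 fell at 12 h and 4 rose and 9 fell at 48 h, with SKP2 lower by 1.50 ± 0.09 and 1.29 ± 0.09 (adjusted p = 2.2e-07 and 5.2e-07 in limma). Of 27 deubiquitinases, 6 rose and 7 fell at 12 h and 11 rose and 7 fell at 48 h, led by TNFAIP3, which was 8.51-fold higher at 12 h, and OTUB2, 3.35-fold higher at 48 h. Of 5 genes of the ISG15 system, 1 rose and 3 fell at 12 h and 3 rose and 0 fell at 48 h. Of 12 genes of the SUMO system, 2 rose and 5 fell at 12 h, and 2 rose and 2 fell at 48 h.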

How the data were processed

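Total RNA from 12 HK-2 cultures, biological replicates per the labels, was hybridised as biotin-labelled cRNA to Affymetrix arrays of 54675 probe sets. The authors deposited log2 signals per probe set, which GCRMA produced per the submitters' processing notes; that tool adjusts background, normalizes across arrays and condenses probes into probe sets, and no version is stated. The values were used as deposited. No batch is given in the labels, no detection calls were used, and precision is set by having 3 arrays a group.

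Symbols came from the platform annotation given for this work: 41091 probe sets had 1 symbol, 1801 several, 11777 none, and the 62 Affymetrix controls were left out. Of the 1-symbol probe sets 41037 had a gene ID in the RefSeq table. One limma fit (lmFit, then eBayes under a constant prior, in limma 3.58.1 with R 4.3.3) of 4 group means gave 5 two-sided comparisons, adjusted by Benjamini-Hochberg over 10683 genes at 0.05. With 3 arrays a side, the smallest p of an exact permutation test is 0.1. Values are log2 differences ± SE. If no array of a group reached 4, folds are bounds against 4.

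Members and lists were chosen with earlier results of these data known. Values on each array are given for members with adjusted p under 0.05 and a log2 change of at least 0.5 in a CdCl effect or in the difference of effects; UBE2C, UBE2N and UBE2L6 were added after their values were seen. Of each list up to 3 members with the largest called changes at a time may be named, and CDC34, ISG15, UBA1 at 48 h and UBA6 were singled out, where outside that rule, after their values were seen. Promoter sequences are from RefSeq (GRCh38.p14), with windows searched for 20 of 26 tested genes. Members on chromosome 8 were left out of that search, which drops UBE2V2, while the shares over all windows include that chromosome. Alternatives were other scalings, filters, probe sets, priors and samples, and the scripts were tested on simulated data. Same-numbered replicates did not deviate together (0 of 6 pairs within a time above a correlation of 0.1), so no pairing was used.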

Additional observations from a re-analysis of the deposited data

Results flagged for a closer look

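The CdCl effect differed between 12 h and 48 h, by the test of that difference, for 11 of the 26 UBE2 genes tested. It was called more positive at 48 h for 9 and more negative for 2, against 27.0% and 13.0% of all genes. On the log2 scale, 48 h minus 12 h, it was more positive by 0.88 for UBE2Z, 0.85 for UBE2G2, 0.73 for UBE2D4, 0.72 for UBE2S, 0.67 for UBE2J2, 0.65 for UBE2R2, 0.51 for UBE2T, 0.39 for UBE2E1 and 0.35 for UBE2N. It was -1.09 for UBE2D3-AS1, fitted on controls under the filter, and -0.34 for UBE2H. UBE2G2 and UBE2J2 were called in opposite directions at the 2 times on the probe sets used. The 48 h call of UBE2G2 held in 13 of 21 alternative settings and the 12 h call of UBE2J2 in 18 of 21. Neither held on the mean of the gene's probe sets (0.034 and -0.06). The difference of UBE2H held in 8 of 20 settings. Those of UBE2G2, UBE2D4, UBE2J2, UBE2R2 and UBE2N were not called on second probe sets, and those of UBE2T and UBE2N not after centring.

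Signal was also present on probe sets that carry several symbols and enter no gene test. On 1 probe set shared by UBE2V1, UBE2V2, PEDS1 and their readthrough, all CdCl arrays lay above all controls at 12 h (0.32), as they did at both times on another shared by UBE2V1 and PEDS1 (0.23 and 0.046). On a further probe set shared by UBE2V1, UBE2V2 and PEDS1, they did so at 48 h (0.16), after lying below the controls at 12 h (-0.34). On the remaining probe set with those symbols all CdCl arrays lay below all controls at 48 h (-0.13). Of all genes tested, 19.8% lay wholly above and 46.6% wholly below their controls at 12 h, and 29.1% and 30.9% at 48 h. These probe sets cannot be assigned to 1 gene.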

How the results depend on the processing

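Centring each array on its median moved the median change of all genes at 12 h from -0.16 to -0.01. UBE2 genes called higher then went from 5 to 11, where 16.7% and 24.4% of all genes were called higher. Those added were UBE2F, UBE2J1, UBE2L6, UBE2N, UBE2Q1 and UBE2V2. UBE2 genes with a negative difference between the effects went from 2 to 4 with centring, where 13.0% and 18.6% of all genes had one. They went to 1 with no filter on low values and to 1 with the replicate block, where 6.25% and 12% of all genes did. Second probe sets passed the filter for only 15 members. On these, 2 were lower at 12 h, 6 higher and 0 lower at 48 h, and 2 had a positive difference. Of all second probe sets past the filter, 25.6%, 22%, 24.5% and 15.9% did so. There, 3 were higher and 5 lower over time in controls, and 5 higher and 3 lower over time in CdCl cells, against 25.7%, 24.1%, 28.2% and 26.0%. That choice reversed UBE2G2 at 48 h (-0.052), the difference of UBE2H (0.48) and UBE2J2 at 12 h (0.24); the cause was not tested.

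Leaving out 1 array at a time gave 5 genes higher and 10 to 11 lower at 12 h, 10 to 12 higher and 3 to 4 lower at 48 h, and 8 to 10 positive and 0 to 2 negative differences. Over time it gave 5 to 7 higher and 8 to 13 lower in controls, and 11 higher and 7 to 8 lower in CdCl cells. Shares over all genes were not taken for these fits. With all arrays they were 16.7% higher and 39.7% lower at 12 h, and 26.5% and 28.0% at 48 h. They were 27.0% and 13.0% for the difference, 23.4% and 33.5% over time in controls, and 34.7% and 27.6% in CdCl cells. With the replicate block, the pairing not borne out by the data, the difference of UBE2H (-0.34, limma adjusted p = 0.051) and the 48 h change of UBE2R2 (-0.20, adjusted p = 0.052) were not called. The difference between effects has no fit on only the groups compared. Signals near 4 limit UBE2O and UBE2D3-AS1.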
